A study of Mus musculus with 5 samples.

Results

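The hydroxysteroid 17-beta dehydrogenases were followed across the livers of 5 inbred mouse strains. Their 8 genes on the array (Hsd17b2, Hsd17b4, Hsd17b6, Hsd17b7, Hsd17b10, Hsd17b11, Hsd17b12 and Hsd17b13) were taken with every probe set that the platform annotation gives to one of them, 18 probe sets out of 34945 with a single gene, or 8 of 18193 genes. Liver RNA was hybridised to 1 Affymetrix mouse array per strain, for BALB/CByJ, FVB/NJ, NZW/LacJ, RIIIS/J and C57BL/6J. Each array held RNA pooled from 3 untreated males aged 10 weeks, so the spread between animals was averaged away and the spread between pools was not measured. No allele, transgene or treatment was named in the labels, and the arrays were made to check an expression locus that had been mapped before. With 1 array a strain no test could be run, and each difference is a description of these 5 arrays whose number limits the precision. The genes were chosen by their intensities on these same 5 arrays, so their differences are a description and support nothing further.

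The family is named for the oxidation and reduction of the hydroxyl group at carbon 17 of sex steroids, but its members share a fold more than a substrate. Most are short-chain dehydrogenases that use NAD or NADP. In liver some of them inactivate estrogens and androgens, while others work in cholesterol synthesis, in the elongation of fatty acids, in peroxisomal or mitochondrial breakdown of acyl-CoA, or on the surface of lipid droplets.

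Intensities are given on the linear scale as deposited. A probe set was counted as detected when at least 1 array was above an intensity of 8.48, the 95th percentile of 84 chemosensory receptor probe sets (olfactory, vomeronasal, taste), which liver should lack. Lower readings were set to that floor, and a strain was called apart when its distance to the closest of the other 4 strains, up or down, reached 2-fold. Of the 18 probe sets, 15 were detected, 14 of them on all 5 arrays, and 3 were under the floor on every array (1449386_at of Hsd17b6 at 4.39 to 4.59, 1440057_at of Hsd17b7 at 4.27 to 4.34 and 1443059_at of Hsd17b11 at 6.51 to 6.71). All 8 genes kept at least 1 detected probe set and 6 had more than 1. Levels of different probe sets are not set against each other, because their brightness depends on the probes.

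The FVB/NJ and RIIIS/J arrays stood apart from the others in markers of other cells. On the FVB/NJ array 8 of the 9 measured B cell markers were at least 2-fold above every other strain. The 9 markers summed to 18232 against 120 to 251 in the other strains, where 6 were under the floor in each. A marker under the floor elsewhere was detected only through the array where it was high, which limits what such counts show. T and NK cell markers summed to 324 against 56.8 to 58.9 (4 of 8 measured markers apart) and neutrophil markers to 623 against 43.8 to 82.1 (3 of 7). Erythroid markers summed to 6128 against 1311 to 3801 (4 of 7) and Kupffer cell and macrophage markers to 8032 against 3654 to 6655 (3 of 11). Stellate cell and fibroblast markers summed to 7995 in FVB/NJ against 4584 to 7176 (2 of 9 apart). The 2 apart were Acta2, at 823 in FVB/NJ against 58.1 to 77.9, and Vim, at 1251 against 312 to 535. Of the 8 detected markers of this list 6 lay above the mean of the other strains in FVB/NJ and 2 below. Dcn, among those below, read 3156 against 2871 to 3740. Of the 11 Kupffer cell and macrophage markers 7 lay above that mean and 4 below. The B cell marker Pax5 was under the floor on every array, at 4.98 to 5.78. On the RIIIS/J array 7 of 7 measured pancreatic acinar markers were apart, with a sum of 65970 against 718 to 1299. Of these, 4 were under the floor in C57BL/6J, BALB/CByJ and NZW/LacJ and 5 in FVB/NJ. Hepatocyte markers were above the floor on all arrays, and their summed intensity was 330307 in FVB/NJ, 383775 in RIIIS/J and 344929 to 357371 in the other 3 strains, with 0 of 9 apart in any strain. In pooled tissue RNA, fewer cells of a type and less RNA per cell cannot be told apart.

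Among the 15 detected probe sets 7 were apart in at least 1 strain, from the 4 genes Hsd17b6, Hsd17b7, Hsd17b11 and Hsd17b13, while over all 20935 detected probe sets the share was 11.8%. In FVB/NJ 2 were apart on the high side (5.19% of all probe sets) and 1 on the low side (0.497%). In NZW/LacJ 0 were apart on the high side (0.788%) and 3 on the low side (0.774%). BALB/CByJ had 1 on the high side (0.855%) and 0 on the low side (0.377%), RIIIS/J had 1 (1.27%) and 0 (1.67%), and C57BL/6J had 0 (0.506%) and 0 (0.425%). Because the genes were picked for such differences, these counts describe the members and are read no further. Without the FVB/NJ array 5 calls of the other strains remained, and without the RIIIS/J array 7. Leaving out an array cannot bring the nearest strain closer, so none of these calls could end. The call nearest to the threshold from inside was Hsd17b7 probe set 1417871_at in RIIIS/J at 2.01-fold, and the nearest from outside was Hsd17b2 in FVB/NJ at 1.80-fold.

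**Figure D1:**
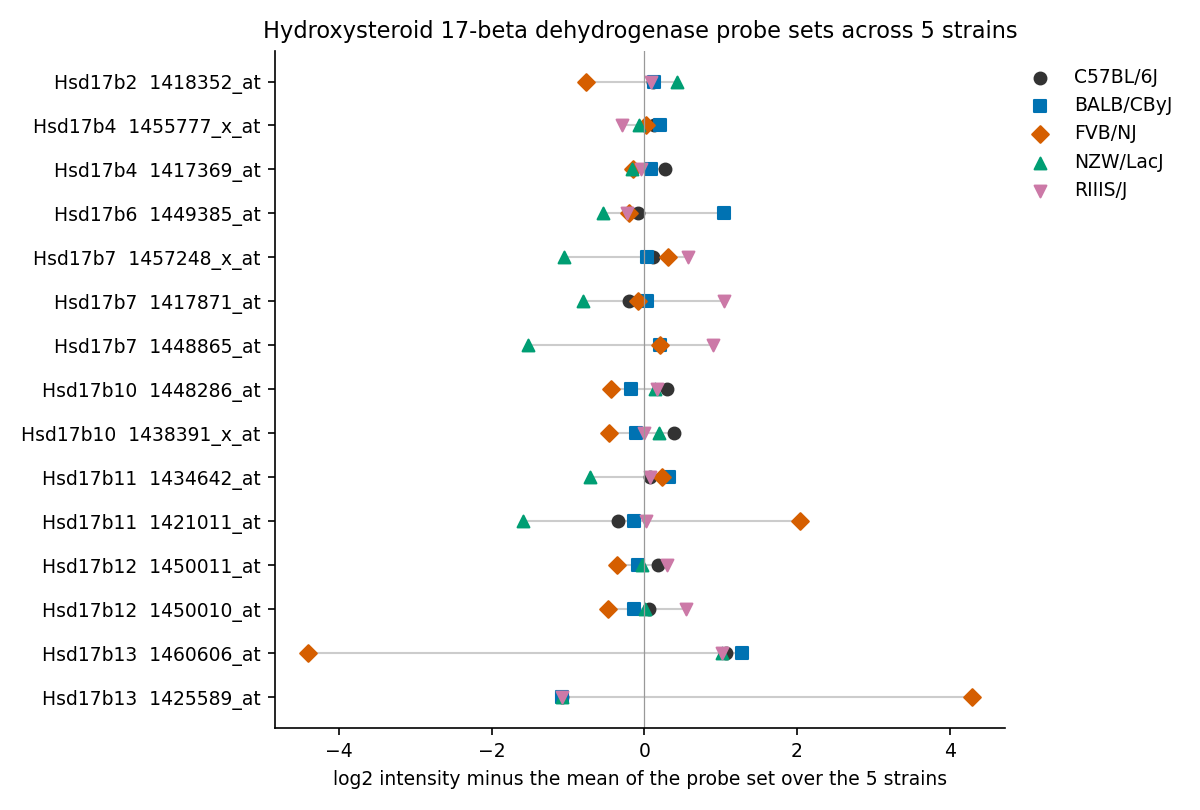
Log2 intensity of each detected probe set minus its mean over the 5 strains (horizontal axis), with 1 row per probe set and 1 symbol per strain; readings lower than the floor are drawn at the floor. The FVB/NJ symbols of the Hsd17b13 probe sets lie at opposite ends, NZW/LacJ is lowest in all 3 Hsd17b7 rows and both Hsd17b11 rows, and the Hsd17b4, Hsd17b10 and Hsd17b12 rows span 2.03-fold at most.

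Hsd17b13, which encodes a lipid droplet protein of hepatocytes, gave opposite readings in FVB/NJ on its 2 probe sets. On 1460606_at FVB/NJ read 195, against 8338 in NZW/LacJ, 8338 in RIIIS/J, 8625 in C57BL/6J and 10015 in BALB/CByJ. FVB/NJ alone was low there, by 42.8-fold below the nearest strain or -5.42 on the log2 scale, and the other 4 strains lay close together. On 1425589_at FVB/NJ read 348, against 4.60 in BALB/CByJ, 4.71 in NZW/LacJ, 4.71 in C57BL/6J and 4.71 in RIIIS/J. FVB/NJ was the one strain above the floor on this probe set, and was at least 41.1-fold higher. The readings of NZW/LacJ and RIIIS/J on 1460606_at were exactly equal, as were those of C57BL/6J and RIIIS/J on 1425589_at, and 36.1% of all detected probe sets had such equal values on at least 2 arrays.

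The span of each Hsd17b13 probe set was wide for this array. A range across strains of 51.4-fold or more was found in 0.516% of detected probe sets, and one of 41.1-fold or more in 0.659%. For each of 5273 genes with at least 2 detected probe sets, the log2 deviations of its 2 most intense probe sets from their own means were subtracted, and the largest difference over the strains was kept. The median gene had a value of 0.43 and the 95th percentile was 1.48. Hsd17b13 had 8.69, the largest of the 5273 genes, and the next gene had 4.09. Probe sets called apart in opposite directions in the same strain occurred in 6 of the 5273 genes (0.114%). These were Hsd17b13, Rtn4 and Tia1 in FVB/NJ, Pdlim5 in NZW/LacJ, and Malat1 and Marf1 in RIIIS/J. Each of the other 5 genes also had at least 1 detected probe set that was not apart in that strain, and Hsd17b13 had none. They were named after their values were seen. Tia1 read 8.30 in FVB/NJ against 30.8 to 54.5 on one probe set and 383 against 139 to 154 on another.

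**Figure D2:**
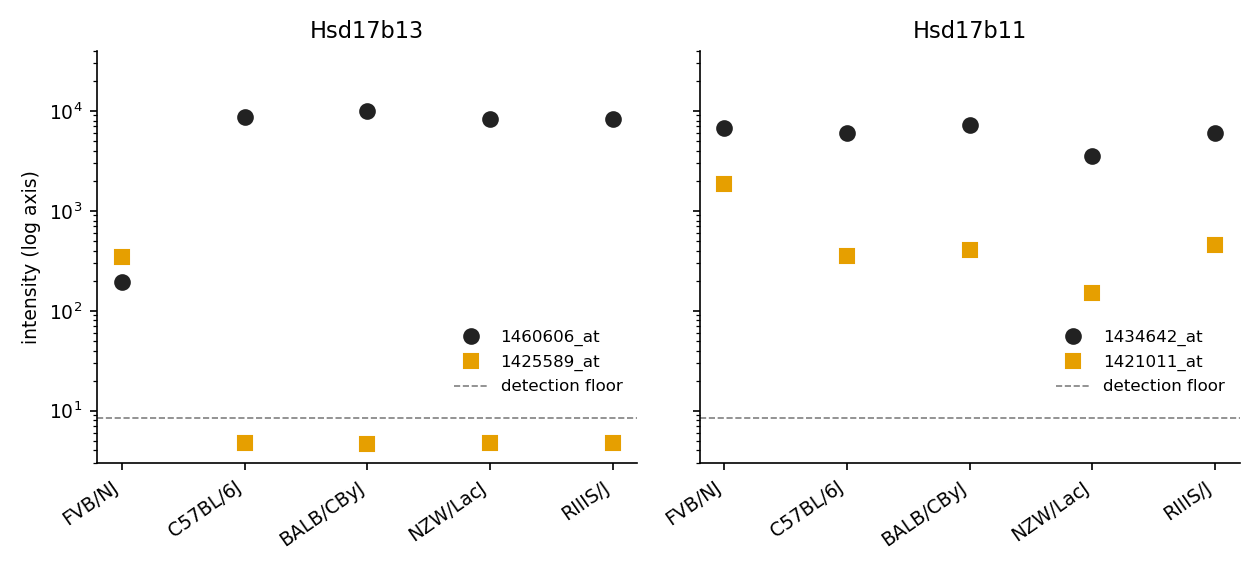
Intensity (logarithmic axis) of the 2 detected probe sets of Hsd17b13 (left) and Hsd17b11 (right) in each strain, 1 point per array, with the detection floor of 8.48 as a dashed line. In FVB/NJ the Hsd17b13 probe sets read 195 and 348 while the other strains read 8338 or more on one and under the floor on the other; on Hsd17b11 1 probe set is highest in FVB/NJ and the other is not.

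**Figure D3:**
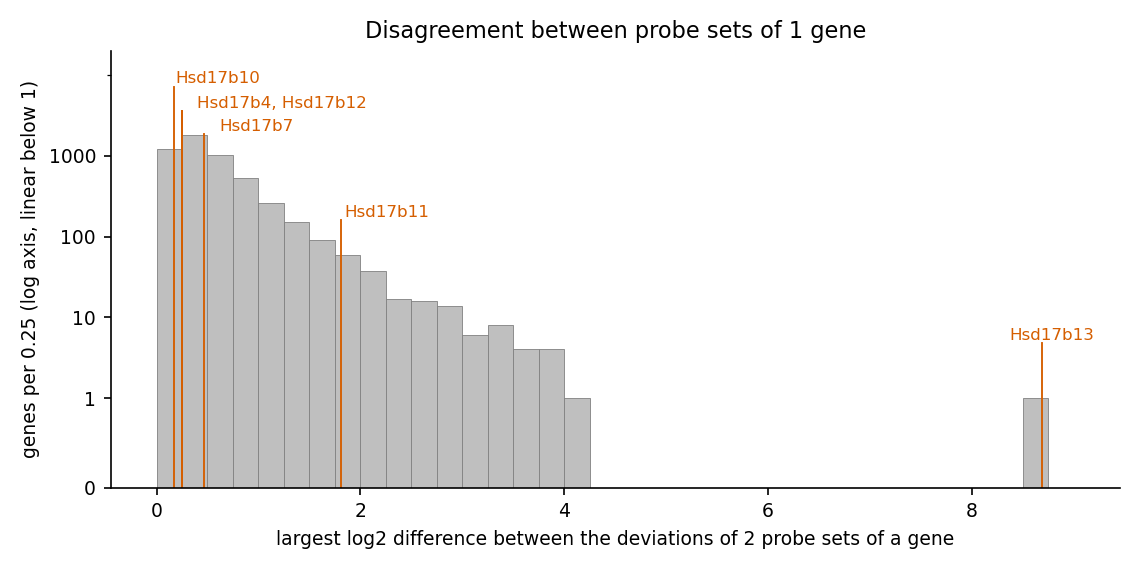
Number of genes (vertical axis, logarithmic above 1) by the largest log2 difference over the strains between the deviations of their 2 most intense probe sets (horizontal axis, bins of 0.25), over 5273 genes, with lines at the members. Hsd17b13 stands alone at 8.69, Hsd17b11 lies at 1.81, and the other members with 2 probe sets lie between 0.17 and 0.46.

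The genes with patterns most like each Hsd17b13 probe set were sought by the root-mean-square difference between log2 values centred over the 5 arrays. For 1425589_at the nearest were Igha, an immunoglobulin heavy chain gene (0.059), Ppbp, a platelet chemokine gene (0.072), and Tbc1d10c (0.077). Igha read 416 in FVB/NJ against 8.89 to 9.45 in the other strains, and Ppbp read 395 against 4.75 to 4.99. Readings under the floor were raised to it, and 1425589_at was under it in all strains but FVB/NJ. Its small distances therefore reflect a like level in FVB/NJ among genes near or under the floor elsewhere, and do not point to a cell type. For 1460606_at no gene came near: the closest were Yae1d1 (0.85), Ctsf (1.15) and A2ml1 (1.23), and Yae1d1 read 26.5 in FVB/NJ against 256 to 336. The blood cell and B cell markers given above were also high on the FVB/NJ array, and their part in the reading of 348 was not tested. Of the 9 hepatocyte markers 5 were lowest in FVB/NJ (26.2% of all genes were) and 7 lay below the mean of the others. None was apart, and their median was -0.099 on the log2 scale against -0.020 over all genes. Alb read 64743 in FVB/NJ against 63745 to 74714, Hnf4a read 3428 against 3203 to 3591 and Tdo2 read 24655 against 28057 to 34419. The part of hepatocyte content in the reading of 1460606_at was not tested. A sign of RNA quality is the log2 difference between probe sets at the 3' and the 5' end of a control transcript. For actin it was 2.32 in FVB/NJ against 1.47 to 1.97, and for Gapdh 0.016 in FVB/NJ against -0.15 to -0.010; their part in the Hsd17b13 readings was not tested.

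RefSeq lists 2 curated transcripts for Hsd17b13, and neither probe set was annotated through one of them, so which transcript each probe set reads was not examined. The promoter windows of Hsd17b13 and of its neighbour Hsd17b11 are shown because the genes are adjacent on chromosome 5 and differed across the strains. They are the RefSeq reference sequence of C57BL/6J (build GRCm38.p6), each 300 bases long and spanning the annotated start of the gene, at chr5:103977339-103977638 and chr5:104021747-104022046, both on the minus strand. Capitals mark exact matches on either strand to 5 motifs: the CCAAT box (letters CCAAT), the GC box (letters GGGCGG), the E-box (letters CACGTG), the nuclear receptor half-site (letters AGGTCA) and the TATA box (letters TATAAA). No matches to different motifs shared a base in the windows shown.
Hsd17b13: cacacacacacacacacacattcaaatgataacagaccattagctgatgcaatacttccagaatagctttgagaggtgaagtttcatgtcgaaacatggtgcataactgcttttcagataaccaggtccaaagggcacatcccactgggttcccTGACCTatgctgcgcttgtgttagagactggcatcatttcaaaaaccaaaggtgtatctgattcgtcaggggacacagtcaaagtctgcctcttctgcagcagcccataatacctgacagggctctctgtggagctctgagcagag
Hsd17b11: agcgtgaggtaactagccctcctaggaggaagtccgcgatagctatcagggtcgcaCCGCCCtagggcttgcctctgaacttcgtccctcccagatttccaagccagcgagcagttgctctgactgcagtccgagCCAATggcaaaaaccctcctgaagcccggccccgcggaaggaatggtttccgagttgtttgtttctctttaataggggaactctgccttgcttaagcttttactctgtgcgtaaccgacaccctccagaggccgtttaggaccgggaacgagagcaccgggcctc
The Hsd17b13 window held 1 nuclear receptor half-site, a motif in 16.3% of the 32851 promoter windows of the same length. The Hsd17b11 window held 1 CCAAT box (37.4% of windows) and 1 GC box (35.7%). Sequences of the other strains were not used here, so these windows show no strain difference.

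Hsd17b11 encodes another lipid droplet dehydrogenase, and its probe sets also disagreed in FVB/NJ. On the most intense, 1434642_at, NZW/LacJ read 3524, against 6042 in C57BL/6J, 6044 in RIIIS/J, 6762 in FVB/NJ and 7158 in BALB/CByJ. NZW/LacJ was lowest by 1.71-fold and no strain was apart. On 1421011_at, which is annotated through the curated RefSeq transcript of the gene, FVB/NJ read 1867, 4.08-fold above the 458 of RIIIS/J, while BALB/CByJ read 410 and C57BL/6J read 356. NZW/LacJ read 151 on this probe set, 2.37-fold below C57BL/6J. NZW/LacJ was thus the lowest strain on both probe sets, and FVB/NJ was high on one of them. The deviations of the 2 probe sets differed by 1.81 on the log2 scale in FVB/NJ, a value reached by 2.90% of genes. The raised markers of other cells on the FVB/NJ array stand beside this reading, and their part was not tested. Apart from the pair itself, none of the measured neighbours was apart in FVB/NJ or NZW/LacJ. Aff1 read 254 to 343, Klhl8 read 9.40 on every array and Nudt9 read 320 to 392, and Sparcl1 read 91.5 in BALB/CByJ against 34.0 to 37.2. The next genes 1700016H13Rik and Dspp were under the floor.

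Of 23 genes fixed for lipid droplet proteins 22 were on the array and 18 detected. In FVB/NJ 0 were apart on either side (5.81% of all detected genes above and 0.539% below), and 13 of 18 lay below the mean of the other strains. Their median against that mean was -0.17 on the log2 scale, against -0.020 over all 11871 detected genes. The brightest members of the list were Ces1f, Ces1d and Plin2. The carboxylesterase genes Ces1f and Ces1d read 14966 and 15761 in FVB/NJ against 14703 to 16011 and 12016 to 14184 in the other strains. Plin2, the main droplet coat protein gene of hepatocytes, read 4249 in FVB/NJ against 4675 to 9349, and was lowest there without being apart. Fitm1, which encodes a protein of droplet formation, was the one list gene apart in any strain where a member was apart, at 36.7 in BALB/CByJ against 332 to 936 (0.438% of genes). The lipid droplet list therefore held no gene that followed Hsd17b13 in FVB/NJ by the 2-fold rule.

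Hsd17b7 encodes the sterol ketone reductase of cholesterol synthesis, which can also reduce estrone to estradiol. Its 3 detected probe sets agreed on the order at both ends, with NZW/LacJ lowest and RIIIS/J highest. On 1457248_x_at NZW/LacJ read 433, against 916 in BALB/CByJ, 974 in C57BL/6J, 1114 in FVB/NJ and 1336 in RIIIS/J, and NZW/LacJ was 2.11-fold below the nearest. On 1448865_at NZW/LacJ read 62.3, 3.33-fold below BALB/CByJ, FVB/NJ and C57BL/6J, which all read 208, and RIIIS/J read 336. On 1417871_at RIIIS/J read 597, 2.01-fold above the 297 of BALB/CByJ, with FVB/NJ at 275, C57BL/6J at 253 and NZW/LacJ at 166. NZW/LacJ was lowest there too, by 1.52-fold, and so was not apart. The most intense probe set carries the suffix _x_at, by which the manufacturer marks probes that may also bind other transcripts. The genes nearest to it in pattern were Arf5 (0.101), Cmss1 (0.124) and Homer2 (0.145), and Arf5 read 119 in NZW/LacJ against 293 to 369.

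Genes of cholesterol synthesis and its control were set beside Hsd17b7. Of 23 listed genes 19 had a probe set and all 19 were detected. None was apart in NZW/LacJ (0.758% of all genes above and 0.724% below) or in RIIIS/J (0.969% above and 1.73% below). In NZW/LacJ 18 of 19 lay below the mean of the other strains and 9 were the lowest of the 5 (16.8% of all genes were), with a median of -0.38 against -0.017 over all genes. In RIIIS/J 15 of 19 lay above the mean of the others and 13 were the highest of the 5 (17.5% of all genes), with a median of 0.42 against -0.024. Without the FVB/NJ array the list medians were -0.41 in NZW/LacJ and 0.38 in RIIIS/J, and without the RIIIS/J array the median in NZW/LacJ was -0.32. The median in RIIIS/J was 0.26 without the NZW/LacJ array, and was also 0.26 with the mean of the probe sets of each gene. Fdft1, the squalene synthase gene, read 2557 in NZW/LacJ against 3866 to 5537, and Idi1 read 3113 against 4718 to 6399. Lss, the lanosterol synthase gene, read 412 against 621 to 717. Nsdhl, which acts with Hsd17b7 in removing the methyl groups at carbon 4 of the sterol, read 3171 in RIIIS/J against 1681 to 2580, but was lowest in FVB/NJ. The brightest list genes did not all share the order of Hsd17b7: Hmgcs1 read 8420 in RIIIS/J against 10623 to 18416, Ebp read 9645 in NZW/LacJ against 7293 to 12865, and Msmo1 read 6293 in NZW/LacJ against 7721 to 10367. Srebf2, the gene of the sterol-sensing transcription factor, read 113 in NZW/LacJ against 113 to 130. On the log2 scale Hsd17b7 stood at -1.31 in NZW/LacJ and 0.72 in RIIIS/J against the mean of the others.

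**Figure D4:**
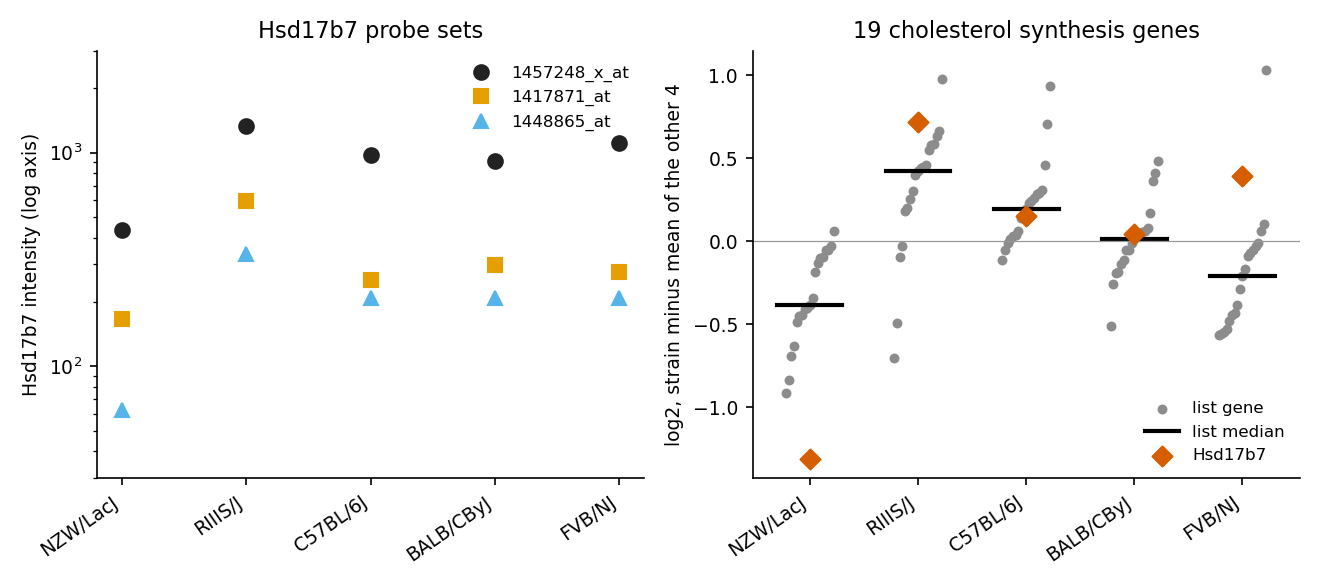
Left, intensity (logarithmic axis) of the 3 detected Hsd17b7 probe sets in each strain; right, log2 distance of each strain from the average of the remaining 4 for 19 cholesterol synthesis genes (grey, list median as a bar) and for Hsd17b7 on its most intense probe set (diamond). Hsd17b7 lies below every list gene in NZW/LacJ, at -1.31 against a median of -0.38, and above the median in RIIIS/J.

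The strains also differed in genes of the circadian clock, and sterol synthesis is rhythmic in liver. Dbp, a clock output gene, read 75.5 in RIIIS/J, 1023 in NZW/LacJ and 4940 to 8951 in the other 3 strains, while Arntl, which runs opposite to it, read 156 in RIIIS/J, 68.1 in NZW/LacJ and 13.7 to 14.1 elsewhere. Summed over 17 measured clock genes, of which 16 were detected, intensity was 4288 in RIIIS/J, 6080 in NZW/LacJ and 12628 to 18864 in the other 3 strains. The sum pools genes that run opposite to each other. RIIIS/J and NZW/LacJ differed in Dbp and Arntl from each other as well as from the other 3 strains. The time of collection was not given in the sources used here, and its part was not tested. The pancreatic markers high in RIIIS/J stand beside its Hsd17b7 reading of 597 and their part was not tested. Of the 9 hepatocyte markers 7 were also highest in RIIIS/J (17.5% of all genes were), with a median of 0.15 against -0.024 over all genes. In NZW/LacJ their median was -0.059 against -0.017 over all genes. The part of hepatocyte content in the Hsd17b7 and sterol list readings was not tested.

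The Hsd17b7 promoter window is shown because the gene lay on the same side as most of the sterol list in both strains. It is at chr1:169969156-169969455 on the minus strand of GRCm38.p6, with capitals as above.
Hsd17b7: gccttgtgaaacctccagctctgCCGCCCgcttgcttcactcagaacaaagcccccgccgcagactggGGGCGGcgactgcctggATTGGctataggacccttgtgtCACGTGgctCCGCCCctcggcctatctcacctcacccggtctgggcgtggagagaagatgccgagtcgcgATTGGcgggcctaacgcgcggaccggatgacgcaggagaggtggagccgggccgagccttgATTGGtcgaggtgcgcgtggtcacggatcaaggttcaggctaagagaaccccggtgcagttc
The window held 3 CCAAT boxes, 3 GC boxes and 1 E-box, the last found in 7.15% of promoter windows. Among the measured neighbours of Hsd17b7, Rgs5 read 537 to 1218, Uap1 read 496 to 698, Ddr2 read 16.3 to 17.3 and 3110045C21Rik read 5.03 to 15.8, and Nuf2 and Rgs4 were under the floor. None of these was apart in a strain.

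Hsd17b6, a microsomal dehydrogenase related to the retinol dehydrogenases that oxidises androgen metabolites, was apart in BALB/CByJ. On 1449385_at BALB/CByJ read 12065, against 4031 in NZW/LacJ, 4982 in RIIIS/J, 5075 in FVB/NJ and 5534 in C57BL/6J. BALB/CByJ alone was high, 2.18-fold above C57BL/6J, and the other 4 strains lay within a narrow span. Its nearest genes in pattern were Slc17a5, the lysosomal sialic acid transporter gene (0.043), Ube2q2 (0.069) and Nipsnap2 (0.078), and Slc17a5 read 579 in BALB/CByJ against 209 to 278.

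Hsd17b6 lies on chromosome 10 beside genes of the same enzyme group. Of these, Sdr9c7 and Rdh16f2 were lowest in BALB/CByJ, while Rdh7 was highest there without being apart. Sdr9c7, the gene before it among those measured, read 157 in BALB/CByJ against 324 to 1127, 2-fold or more below every other strain. Rdh16f2, the third gene before it, read 96.9 in BALB/CByJ against 305 to 2158 and was apart on the low side as well. Rdh7, which lies between them, read 22839 in BALB/CByJ against 17426 to 20463. On the other side Prim1 read 119 in BALB/CByJ against 30.3 to 88.4, Naca read 16089 against 13526 to 15954, and Atp5b read 20653 against 17823 to 22213. BALB/CByJ was thus apart on the low side in 2 neighbours and on the high side in Hsd17b6. Of 16 retinol dehydrogenase genes fixed beside it 12 were detected. In BALB/CByJ 1 was apart above (0.8% of all genes) and 0 below, and the median was -0.042 against 0.0026 over all genes. The gene apart was Rdh13, at 47.6 in BALB/CByJ against 13.8 to 19.0. Rdh9 read 1045 in NZW/LacJ against 2106 to 5858 and was apart on the low side there (0.724% of genes). Of the brightest list genes, Rdh7 is given above, Dhrs4 read 5435 in BALB/CByJ against 3202 to 4606, and Rdh9 read 5858 in BALB/CByJ against 1045 to 3978.

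**Figure D5:**
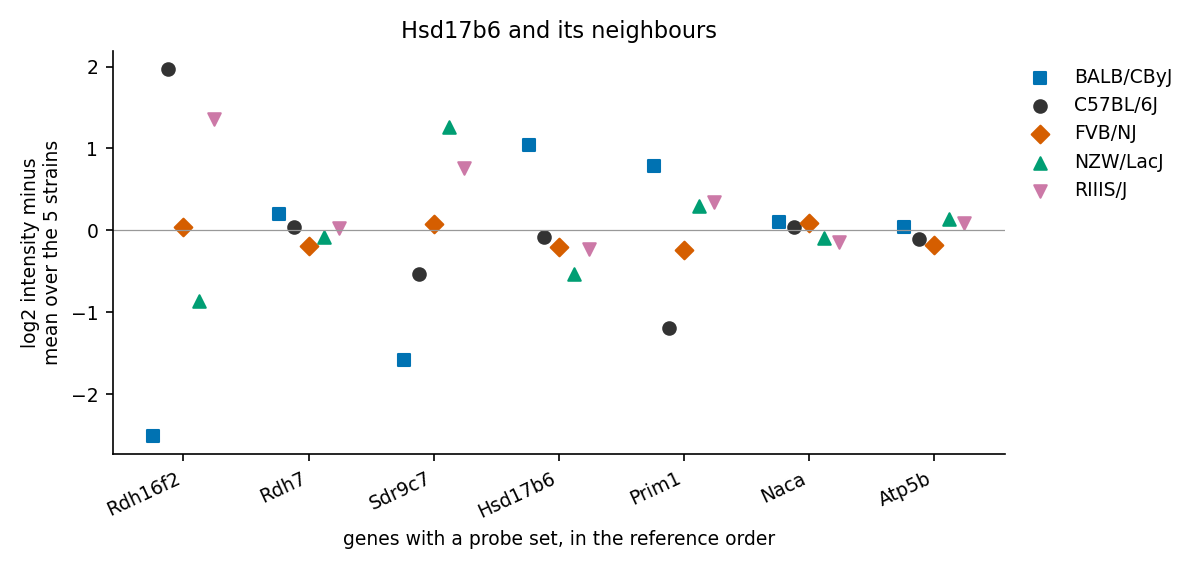
Log2 intensity minus the mean over the 5 strains (vertical axis) for Hsd17b6 and the 3 genes with a probe set on either side of it in the reference order, 1 symbol per array. BALB/CByJ is highest for Hsd17b6, Rdh7, Prim1 and Naca and lowest for Rdh16f2 and Sdr9c7.

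Hsd17b2 oxidises estradiol and testosterone to their less active ketones. Its 1 probe set, 1418352_at, read 2478 in FVB/NJ, against 4456 in RIIIS/J, 4535 in C57BL/6J, 4597 in BALB/CByJ and 5647 in NZW/LacJ. FVB/NJ was lowest by 1.80-fold, short of the threshold, and NZW/LacJ was highest. Among the other steroid dehydrogenases and reductases, 15 of 18 listed genes were on the array and 10 detected. Of these 0 were apart above (5.81% of all genes) and 1 below (0.539%) in FVB/NJ, and 4 were lowest there (26.2% of all genes), with a median of -0.051 against -0.020 over all genes. The gene apart was Hsd3b3, a gene for one of the enzymes that oxidise and isomerise steroid precursors, at 616 in FVB/NJ against 2149 to 2861. Hsd3b5, another Hsd3b gene and among the 3 brightest of the list, read 4374 in FVB/NJ against 8273 to 16434 and was not apart. Hsd3b7, a gene of bile acid synthesis, read 5003 in FVB/NJ against 9725 to 10544 and was not apart. Akr1c6, which reduces the same carbon from another enzyme family, read 26353 in FVB/NJ against 26667 to 31196, and Hsd11b1, which reactivates glucocorticoids, read 16331 against 13661 to 22690. Srd5a3 was apart in RIIIS/J, at 36.2 against 76.0 to 76.8 (1.73% of genes). The related genes Hsd17b1, Hsd17b3 and Hsd17b14 were under the floor on every array.

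None of the 6 probe sets of the 3 remaining members was apart, and their ranges across strains ran from 1.35-fold to 2.03-fold. Hsd17b4, the bifunctional enzyme of peroxisomal beta-oxidation, read 5987 in RIIIS/J to 8485 in BALB/CByJ on 1455777_x_at and 6361 in NZW/LacJ to 8563 in C57BL/6J on 1417369_at. The extremes fell on different strains in each, and the ranges of 1.42-fold and 1.35-fold were reached by 61.6% and 67.7% of detected probe sets. Hsd17b10, a mitochondrial enzyme of isoleucine breakdown that is also a subunit of mitochondrial RNase P, read 2558 in FVB/NJ, 3070 in BALB/CByJ, 3809 in NZW/LacJ, 3889 in RIIIS/J and 4264 in C57BL/6J on 1448286_at. On its other probe set, 1438391_x_at, FVB/NJ was again lowest at 1934 and C57BL/6J again highest at 3483. Hsd17b12, the ketoacyl-CoA reductase of fatty acid elongation, read 3536 in FVB/NJ, 4276 in BALB/CByJ, 4449 in NZW/LacJ, 5115 in C57BL/6J and 5555 in RIIIS/J on 1450011_at. Its second probe set, 1450010_at, ran from 1360 in FVB/NJ to 2760 in RIIIS/J, with the same strains at both ends. On their most intense probe sets 4 of the 8 members (Hsd17b2, Hsd17b10, Hsd17b12 and Hsd17b13) were lowest in FVB/NJ, where 26.2% of all genes were. BALB/CByJ was highest for 4 of 8 (Hsd17b4, Hsd17b6, Hsd17b11 and Hsd17b13), against 21.6% of all genes.

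Each list of partner genes of these 3 members held a gene apart on the low side in NZW/LacJ. The peroxisomal list also held genes apart in BALB/CByJ and RIIIS/J. Of 19 peroxisomal beta-oxidation genes 16 were detected, and in NZW/LacJ 12 of them lay below the mean of the others with a median of -0.32 against -0.017 over all genes. Crat, a carnitine acetyltransferase gene, was apart there at 94.1 against 252 to 391 (0.724% of all genes were apart below in NZW/LacJ). In BALB/CByJ Abcd2, a peroxisomal fatty acid transporter gene, was apart at 78.1 against 11.2 to 33.0 (0.8% above). In RIIIS/J Amacr, a racemase gene of branched acyl-CoA breakdown, was apart at 978 against 2667 to 4034, and Decr2, a peroxisomal dienoyl-CoA reductase gene, at 644 against 1718 to 3207 (1.73% below). The brightest of the list, Phyh, a peroxisomal alpha-oxidation gene, read 36568 in NZW/LacJ against 37216 to 42632. Acaa1b, a peroxisomal thiolase gene, read 20095 in NZW/LacJ against 35630 to 44563, and Scp2 read 38899 against 26837 to 37419. All 14 elongation genes were detected, and 2 were apart on the low side in NZW/LacJ (0.724% of all genes). Elovl6, an elongase gene, read 299 in NZW/LacJ against 874 to 1525, and the desaturase gene Fads2 read 1307 in NZW/LacJ against 2931 to 5207. Scd1, Elovl5 and Elovl2 were the brightest and not apart, while Tecr, which follows Hsd17b12 in the elongation cycle, read 4605 to 6310. All 12 genes of isoleucine breakdown and RNase P were detected. Their median was -0.18 in FVB/NJ against -0.020 over all genes, with 5 of 12 lowest there (26.2% of all genes). The shift was larger in BALB/CByJ, where the median was 0.35 against 0.0026 over all genes. There 6 of 12 were highest (21.6% of all genes). Trmt10c, a partner of Hsd17b10 in RNase P, was the one gene apart, at 76.6 in NZW/LacJ against 172 to 287 (0.724% of all genes), and Prorp, the third subunit, read 30.8 to 62.7. Hadh, Hadhb and Acat1 were the brightest of the list, and Acat1, the thiolase gene after Hsd17b10 in isoleucine breakdown, read 6916 in FVB/NJ against 7914 to 13704.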

How the data were processed

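The deposited values are array intensities on a linear scale. The submitters' processing notes name GCOS and GCRMA as the authors' tools; in the sources used here no version, setting or array batch is given. The deposited table held 45101 probe sets, of which 64 manufacturer controls were left out. Genes came from the platform annotation, and 34741 of 34945 probe sets with 1 gene matched the RefSeq gene table (GRCm38.p6), used for names and gene order. The array table names no build.

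From these values log2 was taken after raising those under the floor of 8.48 to it. A gene took its probe set with the highest mean log2 value. Differences were called at 2-fold from the nearest strain, with no test, since each strain had 1 array (a pool of 3 animals). The share of all detected probe sets or genes called by the same rule stands beside the members' counts. The members and lists were chosen with earlier results of these data known. Named were all members, the 3 genes nearest in pattern to each member apart on its most intense probe set (or each Hsd17b13 probe set), list genes apart where a member was apart, the 3 brightest of each list, and 3 measured neighbours on either side of 4 members; other list genes named for their role, and the genes with opposite probe sets, were chosen after their values were seen. List genes without a probe set were not analysed here. Alternatives were another floor or none, quantile normalization, scaling to the median, a 4-fold threshold, the median of the other strains and log2(value + 16). Further ones were leaving out each array and the mean of the probe sets of a gene. Leaving out probe sets with a suffix such as _x_at changes nothing for Hsd17b13 and Hsd17b11, whose detected probe sets carry none. It was not done for Hsd17b7 or the lists. The calling procedure was checked on simulated data. Python 3.11.15, numpy 2.4.6, pandas 2.3.3 and matplotlib 3.10.9 were used.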

Additional observations from a re-analysis of the deposited data

How the results depend on the processing

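The opposite readings of Hsd17b13 in FVB/NJ stayed past 2-fold in the 11 other settings that gave a value, from -5.61 to -5.31 on the log2 scale for 1460606_at and from 3.64, with the higher floor of 28.0, to 6.21, with no floor, for 1425589_at. The difference between the 2 deviations was -8.70 with quantile normalization. Of 8 calls of member probe sets, all were kept under the higher floor and quantile normalization, and 3 under the 4-fold threshold. All 8 also remained with no floor and with the median of the other strains, where a call cannot be lost. Array medians of probe sets detected on all arrays lay from -0.088 (RIIIS/J) to 0.12 (FVB/NJ) around their mean on the log2 scale. NZW/LacJ lay at -0.068 and BALB/CByJ at 0.064. Scaling to these medians ended the call of Hsd17b7 probe set 1457248_x_at in NZW/LacJ, whose nearest strain was BALB/CByJ, at -0.95. The setting log2(value + 16) ended that of 1417871_at in RIIIS/J at 0.97. Without 1 array there were 5 to 8 calls. The count was 5 without FVB/NJ and 5 without NZW/LacJ, since the calls of that strain drop out. None of the remaining calls could end, because leaving out an array never brings the nearest strain closer. The cholesterol median in NZW/LacJ ran from -0.41 to -0.30. In RIIIS/J it was 0.26 with the mean of the probe sets of a gene, where the cause was not tested, and ran from 0.26 (without NZW/LacJ) to 0.49 (without C57BL/6J) when 1 array was left out. The retinol dehydrogenase median in BALB/CByJ ran from -0.22 (without FVB/NJ) to 0.088 (without RIIIS/J), and changed sign without RIIIS/J and without NZW/LacJ (0.034); the cause was not tested. The lipid droplet median in FVB/NJ ran from -0.32 with scaling to -0.092 without C57BL/6J. No paired analysis was possible because there was a single array for every strain. Brightness near the floor limits 1425589_at, whose fold is a lower bound.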
